A study of Mus musculus with 16 samples.

Results

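A set of 10 genes that mark or direct epithelial and mesenchymal identity were examined in mouse embryonic stem cells (ESCs), among 26180 genes with a curated RefSeq start site. They are the epithelial genes Grhl2, Cdh1 and Epcam, the mesenchymal genes Cdh2 and Vim, and the transcription factor genes Snai1, Snai2, Twist1, Zeb1 and Zeb2. They were chosen by name for these roles, except that Grhl2 was selected on the score of a Suz12 peak called in LIF-ESCs only. The Suz12 difference at Grhl2 is therefore given as a description. The cells were R1 MycER ESCs, a clone carrying a Myc protein fused to the estrogen receptor that becomes active with 4-hydroxytamoxifen (OHT), and both cultures were grown without feeder cells on gelatin. LIF-ESCs received 100 units/ml LIF and Myc-ESCs received 50 nM OHT without LIF, so the presence of LIF and the activity of the Myc fusion cannot be told apart. The labels name 16 ChIP-seq libraries, 2 for each culture and antibody (H3K4me3, H3K27me3 and Suz12) and 4 inputs, but the deposited data are 6 peak lists, 1 for each culture and antibody. There was no replicate list and the depth is unknown, so no difference could be set against replicate error and no test was made.

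Cells of an epithelium adhere through E-cadherin, whereas mesenchymal cells carry N-cadherin and vimentin filaments, and the switch between these states is called the epithelial-to-mesenchymal transition (EMT). The Snail, Twist and Zeb factors bind E-box motifs and repress epithelial genes, whereas Grhl2 activates them. Mouse ESCs are themselves E-cadherin-positive. H3K4me3 marks the start sites of active and of poised genes, Suz12 is a core subunit of the Polycomb repressive complex PRC2, and H3K27me3 is the mark which that complex deposits.

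A mark was counted at a gene if any peak reached within 2500 bp of one of its start sites, and covered bases are those of this window (for genes with several start sites, of the window with the most). The peak score is the negative log10 of the peak caller's p-value times 10, with a minimum of 50. It was 3100 or more at 4258 H3K4me3 peaks of LIF-ESCs and 3398 of Myc-ESCs, and at 169 and 549 Suz12 peaks. Many peaks share exactly 3100, so peaks at that level are not ranked against each other by score. The lists differed in length, with 32469 peaks for H3K4me3 in LIF-ESCs against 30345 in Myc-ESCs, 3120 against 16717 for H3K27me3, and 11305 against 13907 for Suz12. The H3K27me3 list of Myc-ESCs was thus the one that differed most from its counterpart, and most H3K27me3 peaks scored below 100 (89.1% of the LIF-ESC list, 79.8% of the other). As a check of the cell type, all 7 ESC marker genes had H3K4me3 in both cultures. Of these, Esrrb also had Suz12 in both cultures and H3K27me3 in Myc-ESCs. H3K4me3 was at 3 of the 6 fibroblast genes for LIF-ESCs (Col1a1, Pdgfra and Thy1) and at 4 for Myc-ESCs (also Col1a2), but not at Dcn and Lum. The shares of all genes were 62.2% and 63.3%, so the fibroblast genes do not serve as a negative check.

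All 10 members had H3K4me3 at the start site in both cultures, where 61.0% of all genes had it in both, 62.2% in LIF-ESCs and 63.3% in Myc-ESCs. The members were divided by Suz12 and H3K27me3. Suz12 was at 6 members in each culture, against 12.1% of all genes for LIF-ESCs and 14.6% for Myc-ESCs (18.1% and 22.1% of the genes that, like the members, had H3K4me3 in both), but not at the same 6. Cdh2, Vim, Snai2, Twist1 and Zeb2 had it in both (10.8% of all genes), Grhl2 in LIF-ESCs only (1.28%), and Zeb1 in Myc-ESCs only (3.81%). The Suz12 state of Grhl2 was fixed by its selection, so its part in these counts is not a result. Besides Grhl2, 5 members had Suz12 in LIF-ESCs. H3K27me3 was at Grhl2 and Zeb2 in LIF-ESCs (2 of 10, against 3.82% of all genes and 5.42% of those with H3K4me3 in both) and at Cdh2, Snai2, Twist1, Zeb1 and Zeb2 in Myc-ESCs (5 of 10, against 10.7% and 15.6%). Zeb2 had it in both (3.09% of all genes), Grhl2 in LIF-ESCs only (0.733%) and the other 4 in Myc-ESCs only (7.65%). Cdh1, Epcam and Snai1 had no Suz12 or H3K27me3 peak at the start site or over the gene body in any list. By role, none of the 3 epithelial members had a Suz12 or H3K27me3 peak at the start site in Myc-ESCs, while 6 of the 7 mesenchymal genes and EMT factors had Suz12 and 5 had H3K27me3. The lack of Suz12 at Grhl2 in Myc-ESCs was fixed by its selection, so nothing is read from its part in this count. In LIF-ESCs 5 of those 7 had Suz12 and 1 had H3K27me3. With the longer list of each antibody limited to as many peaks as the shorter one, H3K27me3 was left in Myc-ESCs at 2 members, Twist1 and Zeb2, and at 3.53% of all genes, against 3.82% in LIF-ESCs.

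**Figure D1:**
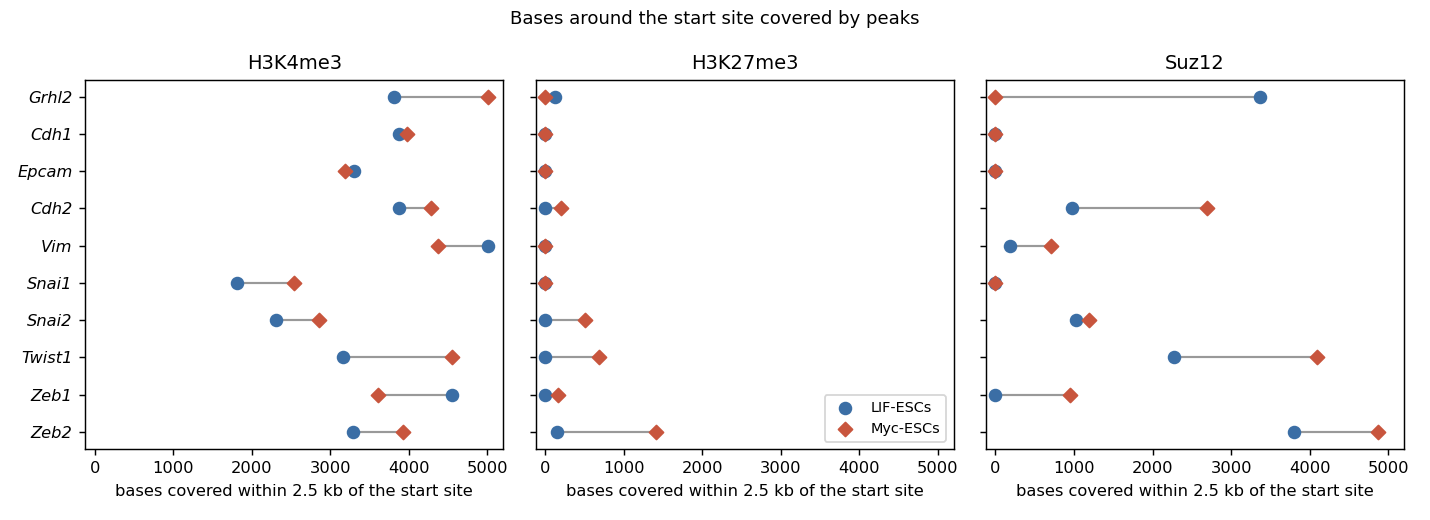
Bases within 2.5 kb of the start site covered by H3K4me3, H3K27me3 and Suz12 peaks for each of the 10 genes, in LIF-ESCs (blue circles) and Myc-ESCs (red diamonds), 1 value per list. Suz12 at Grhl2 lies at 3373 bp in LIF-ESCs against 0 in Myc-ESCs, and the grey lines of Cdh2, Vim, Snai2, Twist1, Zeb1 and Zeb2 run the other way.

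Grhl2 (Grainyhead-like 2, gene ID 252973) encodes a transcription factor that activates Cdh1 and other genes of epithelial junctions. It lies at chr15:37233036-37363569 on the plus strand of GRCm38 and has 16 exons. In LIF-ESCs a Suz12 peak of 2269 bp at chr15:37231835-37234103 spanned the start site, exon 1 and the beginning of intron 1, with a score of 2329.18. It ranked 275 of 11305 in its list, among the top 2.43%. A second Suz12 peak of 1104 bp with a score of 607.48 followed in intron 1 after a gap of 124 bp, at chr15:37234228-37235331. Together they covered 3373 bases of the window, or 67.4%, and every one of these bases lay inside the H3K4me3 peak. A single H3K27me3 peak of 130 bp with a score of 63.34, close to the minimum, lay in intron 1 at chr15:37234622-37234751.

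In Myc-ESCs no Suz12 peak was called at Grhl2, and the nearest one was 557870 bp away. Of genes with H3K4me3 in both cultures and Suz12 in LIF-ESCs, 10.1% had no Suz12 in Myc-ESCs. H3K27me3 was not called at Grhl2 in Myc-ESCs either, and its nearest peak lay 29623 bp away with a score of 86.22. H3K4me3, by contrast, was wider. Its peak measured 3823 bp in LIF-ESCs (chr15:37231730-37235552, score 1068.68) and 8698 bp in Myc-ESCs (chr15:37230327-37239024, score 3100), which is 2.28-fold longer. The peak reached 1403 bp further upstream and 3472 bp further into intron 1, and it was among the longest 0.781% of its list. A second H3K4me3 peak of 4167 bp (chr15:37240632-37244798, score 293.83) was called in intron 1 in Myc-ESCs only, 1607 bp beyond the first. Grhl2 thus carried Suz12 within a shorter H3K4me3 domain in LIF-ESCs and a longer H3K4me3 domain without Suz12 in Myc-ESCs.

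**Figure D2:**
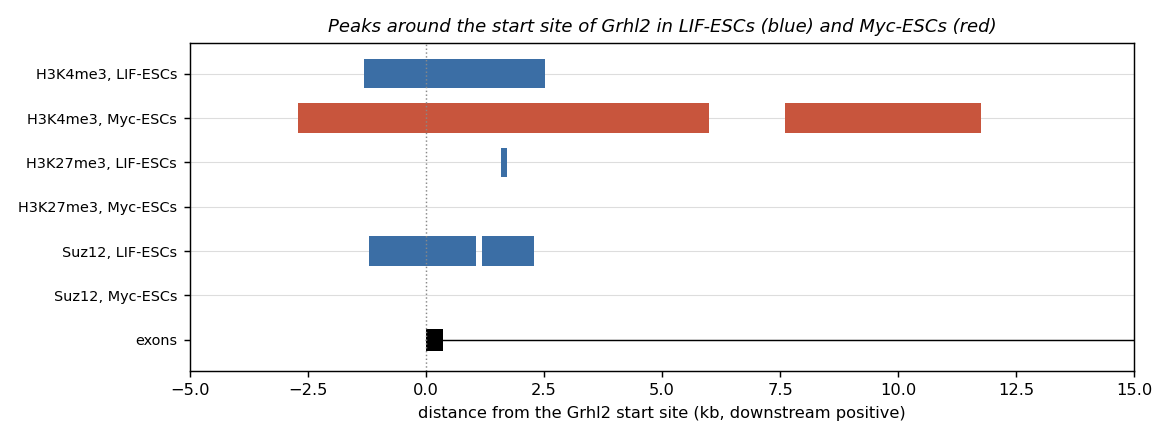
Peaks of the 6 lists around the Grhl2 start site (dotted line) by distance in kb, with LIF-ESCs in blue, Myc-ESCs in red and exons in black. The Suz12 and H3K27me3 lanes are empty in Myc-ESCs, where the H3K4me3 lane holds a peak of 8698 bp and a separate one of 4167 bp.

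Suz12 in LIF-ESCs only was found at 334 genes, or 1.28% of all genes, against 3.81% with Suz12 in Myc-ESCs only. Grhl2 headed those 334 by score, tied with the noncoding gene Gm16136, which starts 123 bp away on the opposite strand and shares its peaks. Grhl2 was selected for a high score with no Myc-ESC peak, so its standing among these genes only describes that selection. The next were Kcnj9 with 454.37, Rragd with 382.55 and Sema3e with 326.5, while the median over the 334 genes was a score of 68 and 219 covered bases. The Grhl2 score was 5.13 times that of Kcnj9. Of the 3156 genes with Suz12 in LIF-ESCs, 343 had at least as many covered bases as Grhl2, and only Grhl2 and Gm16136 of these had no Suz12 peak in Myc-ESCs. Both this count and the ratio to Kcnj9 follow from the selection of Grhl2 and only describe it. The full Grhl2 pattern, H3K4me3 in both cultures with Suz12 and H3K27me3 in LIF-ESCs only, was present at 19 genes (0.0726%), and no gene of the epithelial and mesenchymal programmes described below was among the others. Its Suz12 part was fixed by the selection, and its H3K27me3 part rests on 1 peak with a score of 63.34. That peak was lost at a score of at least 100 and with windows of 1000 bp. Whatever their H3K27me3, 1.82% of genes with H3K4me3 in both cultures had Suz12 in LIF-ESCs only. No other setting called Suz12 at Grhl2 in Myc-ESCs, but nothing is read from this. A score of at least 100, a list cut to equal length and a window of 1000 bp can only remove peaks. With the nearest peak 557870 bp away, a window of 5000 bp could not add one, and predicted start sites added none.

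Cdh1 (gene ID 12550), which encodes E-cadherin, lies at chr8:106603350-106670247 on the plus strand. Its start site sat in a single H3K4me3 peak of 11166 bp in LIF-ESCs against 11582 bp in Myc-ESCs, both with a score of 3100. These were among the longest 0.856% and 0.234% of the respective lists. Further H3K4me3 peaks lay in intron 2, and H3K4me3 covered 30049 bp of the gene body in LIF-ESCs against 21626 bp in Myc-ESCs. The domain at the Cdh1 start was therefore of nearly equal length in both cultures, whereas less of the body was covered in Myc-ESCs. The nearest Suz12 peak lay 90981 bp away in LIF-ESCs and, in Myc-ESCs, 90993 bp away.

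Epcam (gene ID 17075), the epithelial cell adhesion molecule, lies at chr17:87635979-87651127 on the plus strand. Its H3K4me3 peak was 3589 bp long with a score of 1890.62 in LIF-ESCs and 4851 bp long with a score of 3098.8 in Myc-ESCs, a length ratio of 1.35. The nearest Suz12 peaks lay 109684 and 109567 bp away. The Snail and Zeb factors bind the E-box CAGGTG (read on the other strand as CACCTG), and Myc with Max binds CACGTG. The RefSeq promoters were therefore searched for both motifs, from 250 bp before to 50 bp after the start site. The first was in 20.2% of the 32851 promoters of the table and the second in 7.15%. The Epcam promoter, chr17:87635729-87636028 (GRCm38.p6, plus strand), is shown because it holds CACCTG at −187 bp, CAGGTG at −19 bp and CACGTG at +30 bp from the start, all in capitals.
Epcam promoter: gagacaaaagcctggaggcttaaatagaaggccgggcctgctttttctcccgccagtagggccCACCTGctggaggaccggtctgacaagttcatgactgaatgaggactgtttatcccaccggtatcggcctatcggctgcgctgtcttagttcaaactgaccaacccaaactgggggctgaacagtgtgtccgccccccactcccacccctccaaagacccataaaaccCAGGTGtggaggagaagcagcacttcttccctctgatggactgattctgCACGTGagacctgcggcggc

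Snai1 (gene ID 20613) encodes the Snail repressor of Cdh1 and lies at chr2:167538195-167542814 on the plus strand. Unlike the other EMT factor genes it had no Suz12 or H3K27me3 peak, the nearest Suz12 peak being 21659 bp away in LIF-ESCs and, in Myc-ESCs, 51051 bp away. Its H3K4me3 was the shortest of the members in the summed length of start-site peaks, with 1816 bp (score 94.18) in LIF-ESCs and 2540 bp (score 138.64) in Myc-ESCs, a ratio of 1.4. The Snai1 promoter, chr2:167537945-167538244 (plus strand), is shown for its CACCTG at −126 bp, in capitals.
Snai1 promoter: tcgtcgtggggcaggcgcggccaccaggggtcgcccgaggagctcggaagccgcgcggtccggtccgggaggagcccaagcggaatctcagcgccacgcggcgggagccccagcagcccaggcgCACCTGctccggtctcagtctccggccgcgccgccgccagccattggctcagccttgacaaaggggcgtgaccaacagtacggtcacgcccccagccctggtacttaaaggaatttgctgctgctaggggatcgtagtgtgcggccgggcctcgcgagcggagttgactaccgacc
Neither motif was found in the promoters of Vim, Twist1 or Zeb2. The promoter table matched 5 of the 10 members, namely Epcam, Vim, Snai1, Twist1 and Zeb2. A match describes the sequence and does not show that a factor was bound.

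Cdh1, Epcam and Snai1 thus shared one state, H3K4me3 in both cultures without Suz12 or H3K27me3, with 45.2% of all genes. It joined genes of opposite roles, the junction genes and a repressor of them.

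Cdh2 (gene ID 12558), which encodes N-cadherin, lies at chr18:16588877-16809246 on the minus strand. In LIF-ESCs 3 Suz12 peaks covered 970 bases of its window, with a highest score of 167.19. In Myc-ESCs 5 peaks covered 2688 bases, with a highest score of 1544.61. The added bases lay on both sides of the earlier peaks. An H3K27me3 peak of 198 bp with a score of 93.25 was called in intron 1 in Myc-ESCs only. H3K4me3 was split into 2 peaks with scores of at most 177.38 in LIF-ESCs and formed 1 peak of 4848 bp with a score of 832.22 in Myc-ESCs. Each of the 3 marks was therefore more extensive in Myc-ESCs at this gene.

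Vim (gene ID 22352), which encodes vimentin, lies at chr2:13574311-13582826 on the plus strand. Its Suz12 peaks were small and in different places. A peak of 183 bp with a score of 54.77, near the minimum, lay 866 bp upstream of the start in LIF-ESCs. A peak of 707 bp with a score of 364.01 lay 306 bp downstream, in exon 1 and intron 1, in Myc-ESCs. The peaks shared no base, so Suz12 at Vim in both cultures is true of the window and not of a common site. No H3K27me3 was called, and the H3K4me3 peak was shorter in Myc-ESCs, with 4368 bp against 5031 bp.

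Snai2 (gene ID 20583), which encodes Slug, lies at chr16:14705852-14709395 on the plus strand. Suz12 covered 1029 bases in 3 peaks in LIF-ESCs, with a highest score of 154.03, and 1187 bases in 1 peak with a score of 453.23 in Myc-ESCs. The territory was nearly the same, and the score was higher in Myc-ESCs. H3K27me3 was called in Myc-ESCs only, in 3 peaks that covered 513 bases with scores of at most 68.03. The H3K4me3 peak was 2313 bp long in LIF-ESCs against 2849 bp in Myc-ESCs.

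Twist1 (gene ID 22160), a basic helix-loop-helix factor of mesoderm and neural crest, lies at chr12:33957671-33959831 on the plus strand. Suz12 covered 2269 bases of its window in 7 peaks in LIF-ESCs and 4096 bases in 4 peaks in Myc-ESCs, and the highest score was 595.15 and 1669.43. The start site itself was left uncovered, with the nearest Suz12 peak 318 bp away in LIF-ESCs and, in Myc-ESCs, 269 bp away. Suz12 thus flanked the start on both sides in both cultures. In all, 4 H3K27me3 peaks covered 693 bases in Myc-ESCs, the strongest with a score of 142.32, whereas the nearest H3K27me3 peak of LIF-ESCs lay 3673 bp from the start. The H3K4me3 peak was 3160 bp long in LIF-ESCs against 4553 bp in Myc-ESCs, and the share of Suz12 bases inside it was 48% and 87.9%.

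Zeb2 (gene ID 24136), a zinc-finger repressor of Cdh1, lies at chr2:44983512-45117442 on the minus strand with 7 annotated start sites, and had the most Polycomb peaks of the members. Suz12 covered 3801 bases of its best-covered window in LIF-ESCs and 4867 in Myc-ESCs. Around all its start sites there were 11 Suz12 peaks in LIF-ESCs, of 6636 bp in all, and 7 of 8923 bp in all in Myc-ESCs, and the highest score was 756.39 and 2102.7. H3K27me3 was called in both cultures, with 1 peak of 154 bp (score 54.38) in LIF-ESCs and 7 peaks of 1728 bp in all (at most 124.6) in Myc-ESCs. In each culture 2 H3K4me3 peaks were called, with 5377 bp in all in LIF-ESCs against 7430 bp in Myc-ESCs, and 35.6% and 56.9% of the Suz12 bases lay inside them. Over the whole gene body there were 19 and 14 Suz12 peaks and 2 and 10 H3K27me3 peaks. At a middle start site the Suz12 domain reached 83 bases of the promoter in Myc-ESCs and none in LIF-ESCs. That promoter, chr2:45113230-45113529 (GRCm38.p6, minus strand), is shown with those 83 bases in capitals.
Zeb2 promoter: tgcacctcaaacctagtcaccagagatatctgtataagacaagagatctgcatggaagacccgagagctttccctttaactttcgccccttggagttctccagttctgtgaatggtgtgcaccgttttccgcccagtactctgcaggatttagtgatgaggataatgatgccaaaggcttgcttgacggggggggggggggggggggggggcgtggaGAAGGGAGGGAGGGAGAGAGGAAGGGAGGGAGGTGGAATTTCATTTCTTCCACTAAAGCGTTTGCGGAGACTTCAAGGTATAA

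Zeb1 (gene ID 21417), the relative of Zeb2 with the same target, lies at chr18:5591860-5775468 on the plus strand with 2 annotated start sites. Suz12 was far from them in LIF-ESCs, at 1409096 bp. In Myc-ESCs 3 Suz12 peaks in intron 1 covered 954 bases, with a highest score of 207.91, and 1 H3K27me3 peak of 162 bp followed with a score of 60.66. Zeb1 was the only member with Suz12 in Myc-ESCs alone. Its H3K4me3 peak was shorter in Myc-ESCs, with 3600 bp against 4713 bp, and a further H3K4me3 peak lay in intron 3 in both cultures. Among genes with H3K4me3 in both cultures and no Suz12 in LIF-ESCs, 7.09% had Suz12 in Myc-ESCs, as did Zeb1 of the 4 members of that kind (Cdh1, Epcam, Snai1 and Zeb1).

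**Figure D3:**
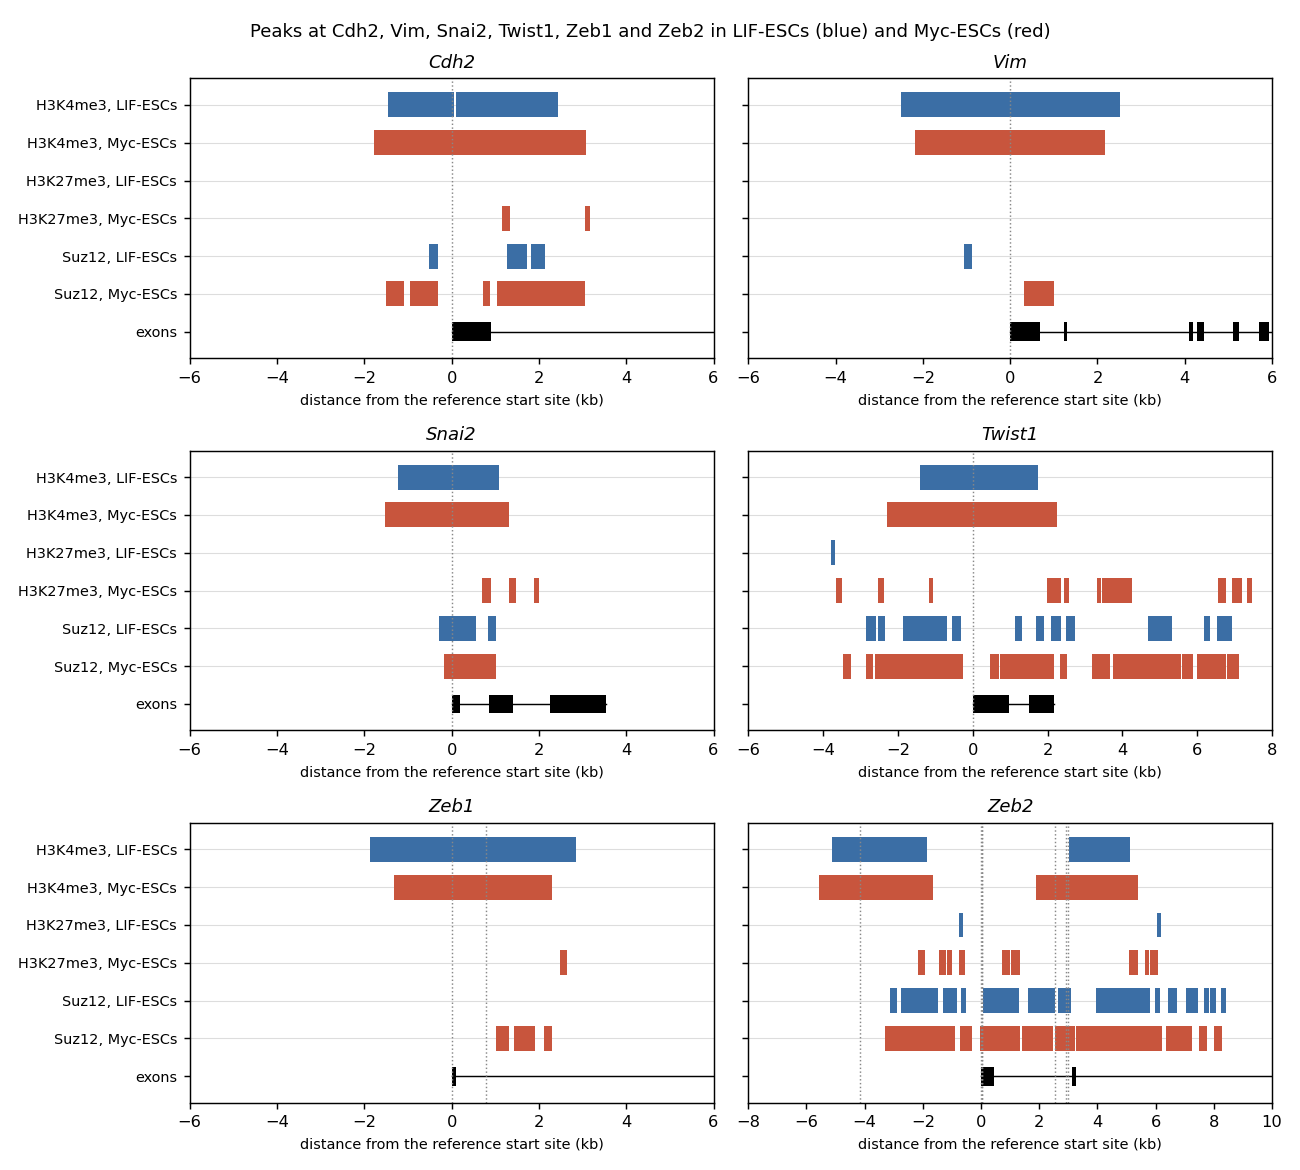
Peaks of the 6 lists around the start sites (dotted lines) of Cdh2, Vim, Snai2, Twist1, Zeb1 and Zeb2 by distance in kb, with LIF-ESCs in blue, Myc-ESCs in red and exons in black, downstream to the right. The red Suz12 blocks are wider than the blue ones at Cdh2, Twist1 and Zeb2, lie elsewhere at Vim, and have no blue counterpart at Zeb1.

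Set side by side, Suz12 covered more bases of the window in Myc-ESCs at 6 of the 7 members with Suz12 in either culture, and fewer at Grhl2. Over all 4154 genes with Suz12 in either culture, 79.2% had more and 20.3% had fewer, so the direction at the mesenchymal genes and EMT factors was that of most genes. The direction at Grhl2 was fixed by its selection. Among the 2822 genes with Suz12 in both cultures 81.2% had more, as did all 5 such members, and the median difference was 484 bp more in Myc-ESCs. Twist1 (1827 bp more) ranked 136, Cdh2 (1718 bp) 174 and Zeb2 (1066 bp) 573, while Vim (524 bp) was near the median and Snai2 (158 bp) below it. Of the 5 members with Suz12 in either culture and no H3K27me3 in LIF-ESCs, 4 had H3K27me3 in Myc-ESCs, and Vim did not. The share among the 3037 genes of that kind with H3K4me3 in both cultures was 52.3%. Only 5 of the 16 H3K27me3 peaks at member start sites in Myc-ESCs scored at least 100, so most were weak. The window's edge mattered at Twist1, where the outermost peaks counted lay 2481 bp (Suz12 in LIF-ESCs) and 2430 bp (H3K27me3 in Myc-ESCs) from the start, and a Suz12 peak at 2587 bp in LIF-ESCs and another at 2661 bp in Myc-ESCs were not counted.

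The H3K4me3 peak at the start was longer in Myc-ESCs at 8 of 10 members, against 61.1% of the 15958 genes with H3K4me3 in both cultures, and shorter at Vim and Zeb1. The median length ratio over those genes was 1.04. Grhl2, at 2.28, ranked 191 of them, and 1.96% of genes had a peak at least 2-fold longer. The members with longer H3K4me3 thus included some with wider Suz12 in Myc-ESCs (Cdh2, Twist1, Zeb2) and others with none (Cdh1, Epcam, Snai1).

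**Figure D4:**
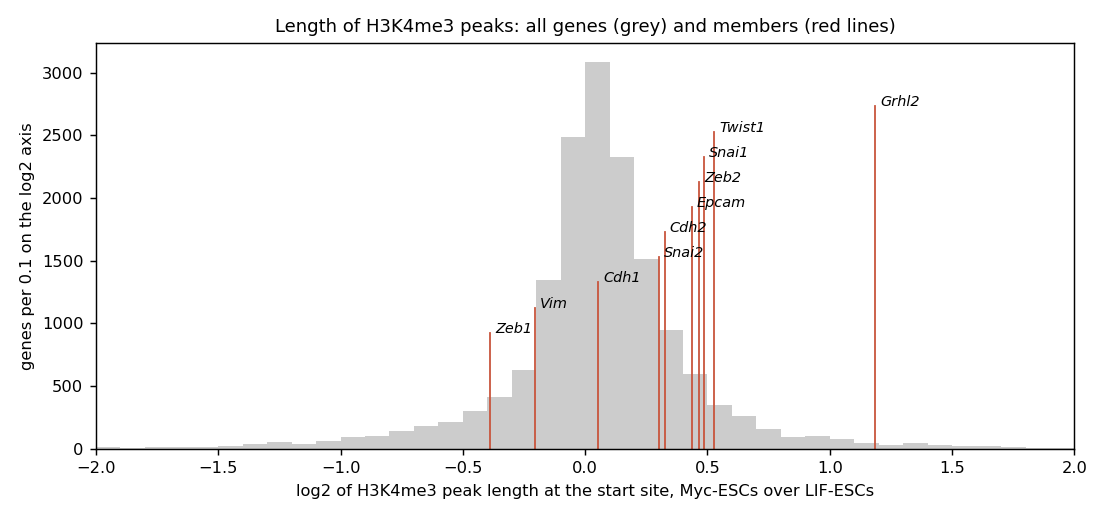
Log2 ratio of H3K4me3 peak length at the start site, Myc-ESCs over LIF-ESCs, as a histogram over genes with H3K4me3 in both cultures (grey), with the members as red lines whose heights only separate the labels. Grhl2 stands far to the right, and Vim and Zeb1 lie below 0.

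The base composition of the start sites did not divide the members the way Suz12 did. The ratio of observed to expected CpG within 500 bp of the start was highest at Zeb1 (0.947), Twist1 (0.871) and Cdh2 (0.869), all with Suz12 in Myc-ESCs. It was lowest at Epcam (0.466) and Zeb2 (0.471), the first without and the second with Suz12. Zeb2 has 7 start sites and only 1 value here, and its promoter at chr2:45110228-45110527 was richer in CpG (19) than its others (8 or 9). Snai1 (0.789) and Cdh1 (0.717), without Suz12, lay above Snai2 (0.699) and Vim (0.675), which had it. Grhl2 had 0.757. The median was 0.707 for genes marked in both cultures by Suz12 as well as H3K4me3 and 0.72 for those with H3K4me3 and no Suz12.

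Other genes of both programmes were taken from lists of 41 epithelial and 44 mesenchymal genes that leave out the members. In LIF-ESCs, 15 epithelial and 22 mesenchymal genes had Suz12, and in Myc-ESCs 16 and 27. The corresponding counts for H3K27me3 were 6 and 9 for LIF-ESCs and 10 and 18 for Myc-ESCs, and for H3K4me3 35 and 37, then 37 and 39. With lists of equal length the Myc-ESC counts of H3K27me3 were 1 epithelial and 10 mesenchymal genes, so the epithelial direction turned. With the peak lists as deposited, the shares of both gene lists lay above those of all genes for each mark and culture. The shares of all genes were 12.1% and 14.6% for Suz12, 3.82% and 10.7% for H3K27me3, and 62.2% and 63.3% for H3K4me3. With lists of equal length, epithelial H3K27me3 in Myc-ESCs was at 1 of 41 genes, where 3.53% of all genes had it. At a score of at least 100 it was at 0 epithelial genes for LIF-ESCs and 1 for Myc-ESCs, against 0.458% and 3.73% of all genes. These counts are too small to be set apart from the shares of all genes.

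The direction of Suz12 coverage was then counted within each list. Of the 17 epithelial genes with Suz12 in either culture, 8 had more bases covered in Myc-ESCs and 9 had fewer, where 20.3% of all such genes had fewer. Among the 9, Tfap2c was nearly equal, with 4948 bases in LIF-ESCs and 4945 in Myc-ESCs. The highest Suz12 score was higher in Myc-ESCs at Ovol2 (637.49 and 856.28) and Marveld3 (326.42 and 534.87), and at no other gene of the 9. Of the 29 mesenchymal genes with Suz12 in either culture 21 had more, 7 had fewer and 1 had as many. With lists of equal length the epithelial counts were 6 more and 10 fewer, and the mesenchymal counts 19 and 7, while 76.0% of all genes had more. The median difference was −3 bp for the epithelial list, 509 bp for the mesenchymal list and 399 bp for all genes, and no test of these lists was made. The genes described next for their covered bases were chosen after these values were seen.

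Esrp1, an epithelial splicing regulator, had the largest difference of the epithelial genes with fewer covered bases. Suz12 covered 4238 bases at Esrp1 in LIF-ESCs with a highest score of 2373.65, and 1543 bases with 345.06 in Myc-ESCs. Unlike Grhl2 it kept Suz12 peaks in both cultures, but with windows of 1000 bp Esrp1 too had Suz12 in LIF-ESCs only. Ovol1, a repressor of EMT factor genes, had 1952 and 1156 covered bases, and an H3K27me3 peak of 189 bp in LIF-ESCs only. Cldn7, a tight junction claudin, had 1513 and 569. Krt18, a keratin of simple epithelia, had 754 bases in LIF-ESCs and no Suz12 in Myc-ESCs. Of all 9 epithelial genes with fewer Suz12 bases in Myc-ESCs, the H3K4me3 score was higher in Myc-ESCs at 7, for example with 1350.56 and 3100 at Esrp1. It was lower at Ocln, with 3156.43 and 2842.59, and at Tfap2c, with 1136.35 and 454.62. The median H3K4me3 score of the whole list was also higher in Myc-ESCs, with 357 against 300 in LIF-ESCs. How many of all genes had a higher score was not counted, so the 7 of 9 cannot be called particular to these genes. Scores also depend on depth, and the part of depth in these differences was not tested. Epithelial genes with the opposite direction included Cdh3, the P-cadherin gene, with 947 and 2325 covered bases, and Dsp, the desmoplakin gene, with 1051 and 1958.

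H3K27me3 was called in Myc-ESCs only at the epithelial genes Cdh3, Cldn3, Dsp, Krt7, Ocln and Tfap2a, and in LIF-ESCs only at Cldn6 and Ovol1. Dsg2 and Krt8 had Suz12, and Krt7 and Rab25 had H3K4me3, in Myc-ESCs only, the latter a state of 2.35% of all genes. With lists of equal length, no epithelial gene kept H3K27me3 in Myc-ESCs only and 5 had it in LIF-ESCs only, so the direction of that count turned as well.

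Among mesenchymal genes, Col1a2, Fgfr1, Mmp14, Smad3, Tbx3, Tgfb1 and Thy1 had Suz12 in Myc-ESCs only, and Loxl2 and Prrx2 in LIF-ESCs only. Tbx3, a T-box factor that also acts in ESC self-renewal, had no Suz12 in LIF-ESCs and a peak over the whole window in Myc-ESCs, with a score of 3100. Tgfb1, the ligand best known to induce EMT, had 0 and 1704 covered bases and a score of 713.86. Both shared the Zeb1 pattern over the 6 lists, Suz12 and H3K27me3 in Myc-ESCs only on H3K4me3 of both cultures, which 1.22% of all genes had. Genes with H3K27me3 in Myc-ESCs only included Axl, Ets1, Foxc1, Hmga2, Sox9, Tbx3, Tgfb1, Tgfbr1 and Twist2, and Snai3 had it in LIF-ESCs only. With lists of equal length, the number of mesenchymal genes with H3K27me3 in Myc-ESCs only was 3 instead of 10, Foxc1 and Sox9 among them, against 2 in LIF-ESCs only. H3K4me3 was called in Myc-ESCs only at Col1a2 and Pdgfrb.

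**Figure D5:**
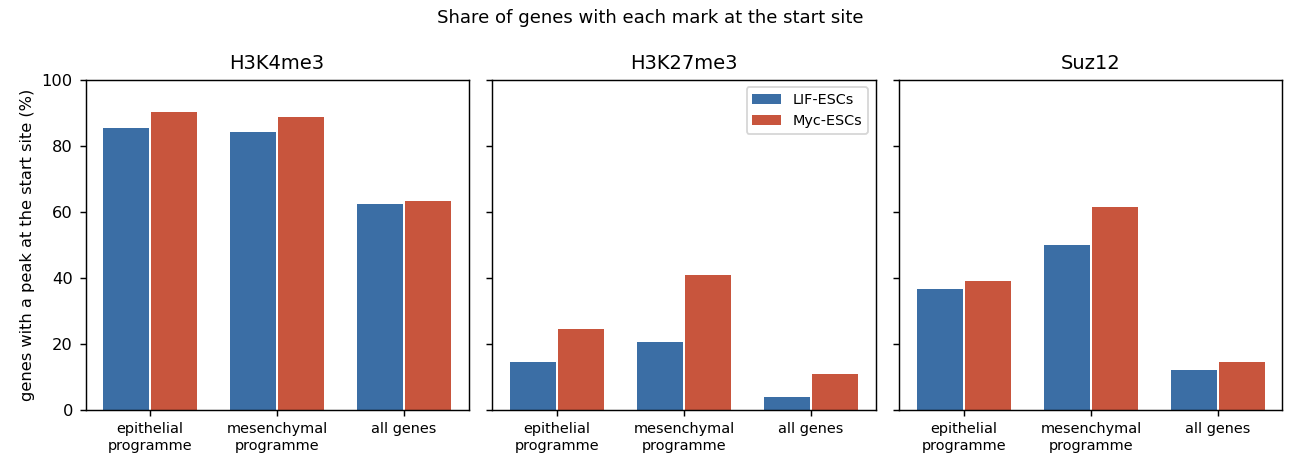
Percent of genes with a peak at the start site, for the epithelial list (41 genes), the mesenchymal list (44 genes) and all 26180 genes, in LIF-ESCs (blue) and Myc-ESCs (red), 1 value per list. The H3K27me3 bars of Myc-ESCs stand above those of LIF-ESCs in every group with the lists as deposited, also in all genes (10.7% against 3.82%), but with lists of equal length not in the epithelial list or in all genes (3.53% against 3.82%).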

How the data were processed

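ChIP-seq libraries for H3K4me3, H3K27me3 and Suz12 were made from LIF-ESCs and from Myc-ESCs. Per the submitters' processing notes, reads were aligned with Bowtie2 2.2.3 to GRCm38 (mm10) and peaks called with MACS 1.4.2. Only unique best matches were kept by the authors. The 6 deposited lists give each peak's position and its score, the negative log10 of the p-value times 10. It grows with depth and enrichment, so scores of different lists are set side by side as values and are not amounts of binding. Whether libraries were pooled is not stated in the sources used here, and depth is unknown.

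Start sites came from 45756 curated RefSeq transcripts of 26180 symbols, and 1 shared base counted as overlap. Intervals were compared in Python 3.11.15 with numpy 2.4.6, and the code was tested on simulated data (0 of 4000 comparisons differed). Figures were drawn with matplotlib 3.10.9. Promoter and miRNA sequences are from RefSeq (GRCm38.p6). The members, the programme lists and the rules were chosen with earlier results of these data known. Named were all members, list genes whose state of a mark differed between the cultures, and the 5 genes with the strongest LIF-only Suz12 peak. Esrp1, Cldn7, Tfap2c, Ovol2 and Marveld3 fall outside this rule and were picked once their values were known. A list gene that met this rule is not reported here. The results were recomputed for peaks scoring at least 100, for lists of equal length, for windows of 1000 and 5000 bp, and with predicted start sites. Gene expression was not analysed here.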

Additional observations from a re-analysis of the deposited data

How the results depend on the processing

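No paired analysis was possible because each culture and antibody has a single peak list, and for the same reason no replicate could be left out. H3K4me3 at all 10 members in Myc-ESCs and Suz12 at 6 members in Myc-ESCs held under each of the 5 alternatives. Suz12 was also absent at Grhl2 in Myc-ESCs under each, but that absence was fixed by its selection. In LIF-ESCs a score of at least 100 left H3K4me3 at 9 members, without Snai1, and Suz12 at 5 instead of 6, without Vim. H3K27me3 was the least stable mark. In LIF-ESCs it was at 0 members at a score of at least 100 and at 1 (Zeb2) with 1000 bp windows, against 2. In Myc-ESCs it was at 2 members instead of 5 under each of a score of at least 100 (Twist1 and Zeb2), lists of equal length (Twist1 and Zeb2) and 1000 bp windows (Snai2 and Zeb2). At Grhl2, 1 Suz12 peak instead of 2 fell in the 1000 bp window in LIF-ESCs. Over the gene bodies 69 peaks instead of 109 remained at a score of at least 100. Depth limits these lists most near the minimum score of 50, where a missing peak does not show a missing mark.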

Other observations

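The microRNAs of the miR-200 family repress Zeb1 and Zeb2 and are themselves repressed by them. They are encoded at a pair of loci. Their mature 3p sequences are shown because the seed, bases 2 to 8 in capitals, divides them into the group of miR-429, miR-200b and miR-200c and the group of miR-200a and miR-141.
miR-429-3p: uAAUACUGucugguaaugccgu
miR-200b-3p: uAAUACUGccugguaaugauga
miR-200c-3p: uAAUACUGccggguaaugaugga
miR-200a-3p: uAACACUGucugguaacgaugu
miR-141-3p: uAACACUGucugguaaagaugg
The hairpins of Mir200c and Mir141 on chromosome 6 began inside an H3K4me3 peak in both cultures, of 3277 bp with a score of 352.85 in LIF-ESCs and 3197 bp with 1096.11 in Myc-ESCs. The nearest H3K4me3 peak to Mir200b, Mir200a and Mir429 on chromosome 4 lay between 2089 and 3852 bp away in LIF-ESCs (2510 bp, score 498.74) and between 1930 and 3693 bp in Myc-ESCs (2968 bp, score 941.4). No Suz12 or H3K27me3 peak lay near either locus, the closest being an H3K27me3 peak 17941 bp from Mir429 in Myc-ESCs. The hairpins of the chromosome 6 locus thus began within H3K4me3. On chromosome 4 the H3K4me3 peak lay upstream of the hairpins in both cultures. It was within 2500 bp of Mir200b (2089 bp in LIF-ESCs, 1930 bp in Myc-ESCs) but not of Mir200a and Mir429. These distances were measured from the hairpin ends and not from a start of transcription, unlike those of Cdh1 and Epcam.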
